A study of Arabidopsis thaliana with 11 samples.

Results

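Flowers were set against stems of the same age in wild-type Arabidopsis thaliana Columbia-0, with 4 arrays of each organ. The 8 arrays were chosen by their labels from the 11 of the series, and the 3 leaf arrays took no part. A flower sample held opened flowers together with closed buds. A stem sample was the top 2 inches of the stem, still expanding, after siliques and pedicels had been taken off. All plants were 29 days past germination, carried no transgene or mutation by the labels, and had been kept at about 25 °C by day and 20 °C by night. Flower replicates 1 and 2 and stem replicates 1 and 2 came from a growth chamber with days of 16 h and light of 125 µmol per square metre and second. Flower replicates 3 and 4 and stem replicate 3 came from a greenhouse, with no light level given. Days of 16 h are stated for flower replicate 3 and stem replicate 3, and no day length for flower replicate 4. Stem replicate 4 carries a greenhouse code in its title and a growth chamber in its protocol, with the chamber's day length and light. RNA of both organs was extracted with Trizol and cleaned on a silica column, then hybridised to the ATH1 GeneChip, on which a set of short probes reads each transcript. The labels do not say whether replicates were separate plants or pools, so every p-value rests on the spread among these arrays, which may be technical.

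The top of the stem is where internodes lengthen and where xylem and fibre cells begin to lay down secondary walls of cellulose, xylan and lignin. The flower carries sepals, petals, stamens and carpels. Inside the stamens, the tapetum is the cell layer that feeds the developing pollen and supplies its outer wall, and nectaries at the stamen base secrete sugar. Cells that divide and cells that expand are known to use different wall enzymes and different microtubule proteins. In organs measured whole, fewer cells of a type and less RNA per cell cannot be told apart, and this applies to every value given here.

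All 22746 probe sets other than controls were considered, and 16145 of them, which reached 100 after normalisation on 4 or more of the 8 arrays, were tested. Intensities are the deposited signals after quantile normalisation, and each log2 difference is flower minus stem on the scale log2(intensity + 32), given with its standard error for n = 4 arrays of each organ. Adding 1 or 100 in place of 32 moved the fold of 39 of the 121 called genes named in the text by over 1.5 times. A probe set was called at an adjusted p under 0.05 (limma, Benjamini-Hochberg) and a difference of at least 2-fold. Flowers had 1590 probe sets called higher (9.85% of those tested) and 1300 called lower (8.05%), 17.9% in all. The 4 flower and the 4 stem arrays did not overlap for 1501 of the higher calls (9.3% of those tested) and 1179 of the lower ones (7.3%). Large differences leaned towards the flower, with 536 probe sets at least 4-fold higher against 271 lower, and 129 at least 16-fold higher against 26 lower. Every stem array was under 100 for 368 of the higher calls, and every flower array for 122 of the lower ones. Those probe sets had passed the filter only through the organ where they were high. In the deposited signals, before quantile normalisation, a signal of at least 100 was reached by 70.4% ± 1.07 of probe sets on flower arrays. On stem arrays the share was 66.1% ± 0.519 (SD, n = 4 each, exact two-sided permutation test p = 0.0286, the smallest this design can give). The median deposited signal averaged 247 on flower arrays and 195 on stem arrays. Quantile normalisation gives all arrays the same distribution, so this difference was not carried into the fit.

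Correlations between arrays were 0.904 to 0.954 within an organ and 0.713 to 0.788 between organs, and the first principal component, which held 67.1% of the variance, separated them. Stem replicate 3, the greenhouse stem, stood apart: the ratio of 3' to 5' signal of its control transcripts was 12.2 for actin and 13 for GAPDH, and its mean correlation with the other stems was the lowest at 0.907. The other 7 arrays had ratios of 2.67 to 8.23 for actin and 1.94 to 5.45 for GAPDH. Without that array 1625 probe sets were higher (10.1%) and 1304 lower (8.08%), and 92.1% of the higher and 89.7% of the lower calls remained. The split of calls depended on the scaling. Of all calls 55% were higher in flower with quantile normalisation, 63.4% with trimmed mean scaling, 65.3% with GapC scaling and 39.8% with median centring, which shifted the median of the tested probe sets by 0.17, 0.19 and -0.13 log2 units.

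**Figure D1:**
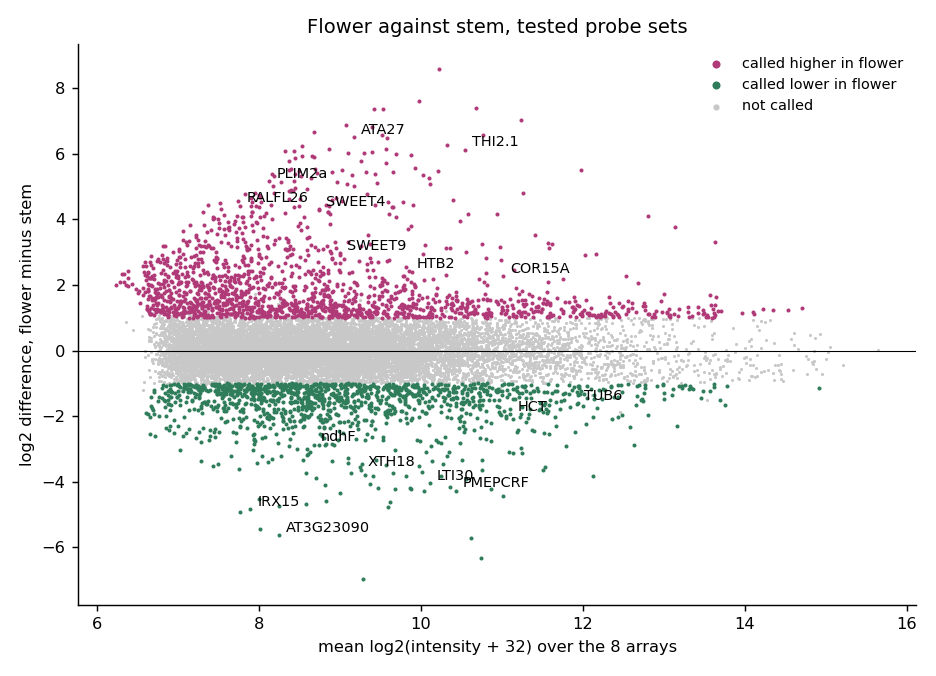
Each point is 1 tested probe set, with its mean log2(intensity + 32) over the 8 arrays on the x axis and its log2 difference, flower minus stem, on the y axis. Coloured points are the 1590 called higher and the 1300 called lower in flower; ATA27 at the top and AT3G23090 at the bottom are the named genes with the largest differences.

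Among called genes with a name, the largest difference towards the flower was that of an anther gene, though several probe sets with no name differed by more. ATA27, a β-glucosidase of the anther, had intensities of 5028, 5273, 5755 and 5824 in flowers and 10.6, 7.7, 92.1 and 32.8 in stems. Its flower arrays lay within a narrow band, while stems were below the signal minimum on every array. The difference was 6.50 ± 0.31 log2 units (adjusted p = 4.6e-08). AT5G07230, a locus of the tapetum list to which the gene table gives no name, had 1254, 709, 1200.2 and 548 in flowers and 43.3, 6.5, 51.2 and 4.8 in stems, with a difference of 4.06 ± 0.35 (adjusted p = 5.7e-06). EMS1, a receptor kinase by which tapetum cells are set apart, gave 699.8, 776, 667 and 509 in flowers and 26.6, 31.3, 33.8 and 137 in stems. Stem replicate 4 stood above the other stems for this gene but far below all flowers (3.10 ± 0.32, adjusted p = 2.4e-05). SHT, which makes the hydroxycinnamoyl spermidines of the pollen coat, reached 321, 255, 445 and 304 in flowers and 36.1, 3.1, 3.5 and 54.9 in stems. SWEET8, a sugar transporter needed for the pollen wall, differed by 2.43 ± 0.21 (adjusted p = 6.8e-06). AT1G75920, another unnamed locus of that list, had 1288, 909, 1152 and 965 in flowers and 11.4, 11.1, 81.1 and 3.2 in stems, a difference of 4.40 ± 0.33.

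The tapetum and pollen wall list, 39 loci of which 7 had a probe set with a gene name, had 6 tested members and all 6 were higher. Of these, 4 were below 100 on every stem array and had passed the filter through the flowers alone. The median difference over all 7 was 3.1, against -0.06 over all non-control probe sets, and it stayed between 2.97 and 3.31 under the other scalings. AMS, a transcription factor of the tapetum and the member that was not tested, had 154, 77.2, 152 and 164 in flowers and 72.6, 16.9, 16.4 and 24.8 in stems, with only stem replicate 1 near the flower values. The counts of the list were the same without stem replicate 3.

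Genes of ripe pollen were less even. PLIM2a, a LIM-domain protein that bundles actin in pollen, gave 1653, 1881, 1789 and 1302 in flowers and 10.3, 28.3, 11.6 and 11 in stems. The flower arrays were close together and all stems near the bottom of the scale (5.16 ± 0.20, adjusted p = 7.4e-09). Its relative PLIM2b gave 396, 375, 337 and 459.7 in flowers and 320.2, 266, 342 and 235 in stems, so that the organs overlapped (0.40 ± 0.17, adjusted p = 0.099). ANX2, a receptor kinase that keeps the pollen tube intact, gave 183, 217, 178 and 167 in flowers and 4.2, 4.7, 8 and 41.8 in stems. ACT12, an actin of pollen, gave 135, 123, 149 and 102 in flowers and 16.3, 19.4, 69.2 and 37.9 in stems. Both were called, at 2.29 ± 0.34 and 1.29 ± 0.34. Of the 11 pollen genes with a probe set 8 were tested and 3 were higher, all 3 of them below 100 on every stem array; the median over the 11 was 0.51. AT59, a pectate lyase of pollen, gave 468, 787, 497 and 263 in flowers and 15.2, 105, 12.1 and 23 in stems (3.00 ± 0.40, adjusted p = 0.00016), with stem replicate 2 as the highest stem. It is not on the pollen list and was chosen after its values were seen.

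**Figure D2:**
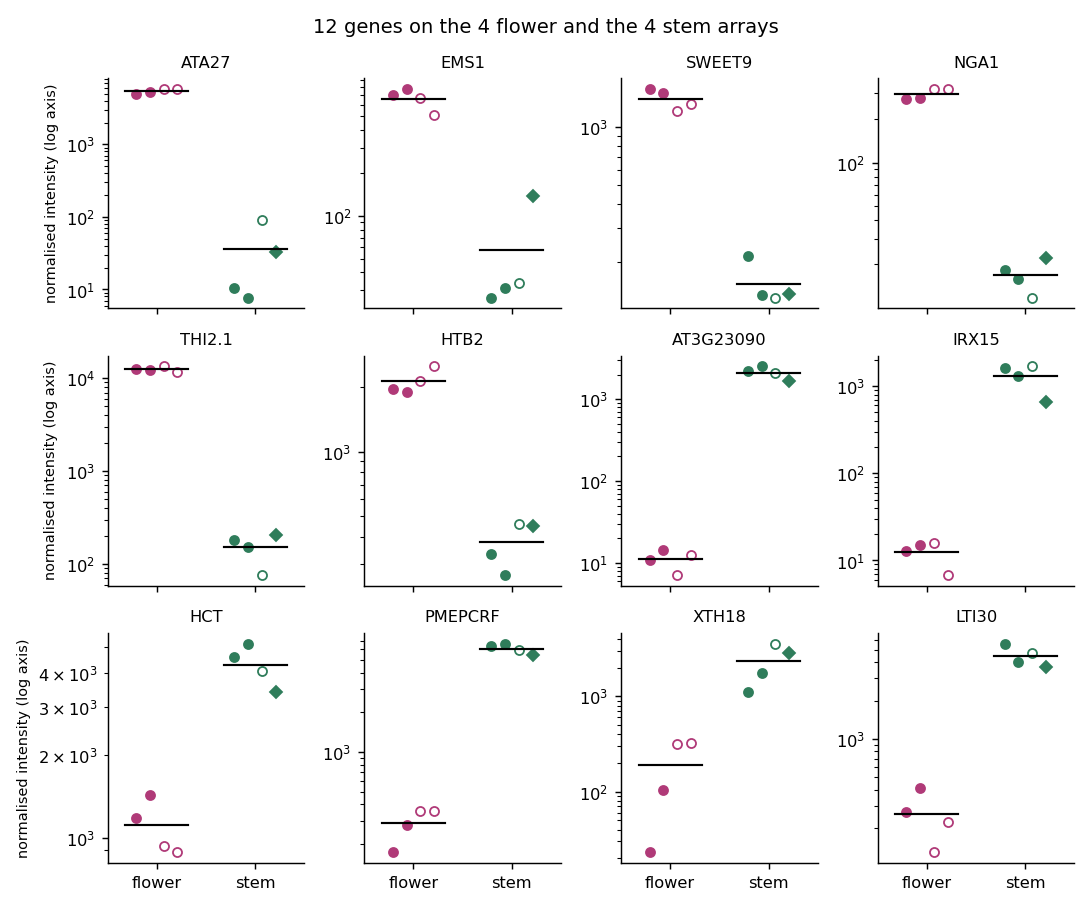
Normalised intensity on a log axis for 12 genes, with the 4 flower arrays on the left and the 4 stem arrays on the right of each panel. Filled circles are growth chamber arrays, open circles greenhouse arrays and the diamond stem replicate 4, and each bar marks the mean. For all 12 genes no flower array overlaps a stem array.

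Genes of the nectary, petal scent and stamen filament list were higher as well. SWEET9, the sucrose exporter of nectaries, had 1585, 1499.9, 1217 and 1322 in flowers and 214, 135, 130.1 and 135 in stems (2.97 ± 0.18, adjusted p = 3.7e-07). Stem replicate 1 was above the other stems, and the lowest flower was far above the highest stem. AT5G44630, a locus of this list with no name in the gene table, gave 1748, 2127, 1558 and 1647 in flowers and 70.7, 9.7, 49.9 and 7.2 in stems, which is a difference of 4.88 ± 0.30 (adjusted p = 4e-07). AT3G25810, likewise unnamed, differed by 3.36 ± 0.36, BSMT1, which methylates benzoic and salicylic acid, by 2.67 ± 0.30, and JMT, which makes methyl jasmonate, by 2.30 ± 0.36. All 5 tested members of this list of 11 were higher, 3 of them with every stem array below 100, and their median of 2.97 was between 2.78 and 3.11 under the other scalings. BPEp, a bHLH factor that limits petal cell size, is not on this list and was chosen after its values were seen. It gave 593, 511, 402 and 412 in flowers and 16.9, 17.3, 10.9 and 5.4 in stems (3.51 ± 0.24, adjusted p = 9.4e-07). The jasmonate-induced thionin THI2.1, a small antimicrobial peptide, had 12503, 12238, 13409.9 and 11622 in flowers and 183, 152, 76 and 204 in stems. It differed by 6.13 ± 0.22 (adjusted p = 5.9e-09), and stem replicate 3 was the lowest stem.

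Some regulators of the carpel and the ovule were higher in flower. The gynoecium and ovule list of 14 loci had 2 tested members, NGA1, which was called higher, and INO, which was not; YAB3 comes from another list, and CES, VDD and ALC were chosen after their values were seen. NGA1, a B3 factor of the style, gave 272, 277, 319 and 321 in flowers and 18.2, 15.9, 11.8 and 22.2 in stems (2.75 ± 0.25, adjusted p = 7.9e-06). CES, a bHLH factor whose gene acts in the transmitting tract, gave 658, 547, 696 and 778 in flowers and 11.3, 8.5, 49.2 and 90.4 in stems (3.43 ± 0.33). VDD, a B3 factor of the ovule, was seen at 309.7, 248, 255 and 219 in flowers and 6.9, 5.5, 54.5 and 7 in stems (2.61 ± 0.34), where stem replicate 3 held the only stem value above 10. ALC, a bHLH factor of fruit opening, was at 796, 585, 892 and 654 in flowers and 141, 164, 273 and 109 in stems (1.95 ± 0.24, adjusted p = 9.1e-05). YAB3, a YABBY factor of the outer side of lateral organs, differed by 2.34 ± 0.43 and its stems ranged widely, from 9.6 to 131. INO, which directs growth of the outer ovule integument, did not reach the 2-fold minimum, with 297, 293, 228 and 292 in flowers and 155, 218, 147 and 114 in stems (0.72 ± 0.21, adjusted p = 0.019).

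SPT, a bHLH factor of carpel margins, stood just under the minimum at 1.00 ± 0.17 (adjusted p = 0.00087), with 523, 639, 611 and 727 in flowers and 343, 272, 246 and 330 in stems, and it was the only tested member of the floral organ identity list. Of the 24 loci of that list, which holds the MADS-box genes of sepals, petals, stamens and carpels, 6 had a probe set with a gene name and 5 of those were too weak to be tested. The petal regulators UFO and RBE were among these, at no more than 14.7 and 109 on any array. For meiosis 4 of 16 loci had a probe set, 2 were tested and none was called, with SDS, a meiotic cyclin, at 0.20 ± 0.35 and ATMND1, a recombination factor, at 0.53 ± 0.42.

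Sugar transporters of the SWEET family, which move sugars down their gradient across membranes, were mostly higher in flower. All 16 members with a probe set were tested, 11 were higher and 1 was lower, against a background of 9.85% and 8.05% of all tested probe sets. The median of the 16 was 1.92, and 1.85 to 2.17 under the other scalings. SWEET4 gave 2063, 2267, 1765 and 1459 in flowers and 130, 38.3, 13.7 and 137 in stems (4.29 ± 0.38, adjusted p = 7e-06), and its stems varied more than its flowers. SWEET1 had 5284, 4652, 3644 and 2973 in flowers and 961, 744, 666 and 668 in stems (2.38 ± 0.20). SWEET10 and SWEET14 differed by 2.85 ± 0.38 and 2.43 ± 0.37, and AtVEX1, which is SWEET5, by 2.26 ± 0.34. SWEET16, a transporter of the vacuole membrane, was the member that went the other way, with 127, 70.5, 183 and 139 in flowers and 499, 537, 480 and 367 in stems (-1.67 ± 0.24, adjusted p = 0.00024). Its vacuolar relative SWEET17 also had lower means in flower but did not reach the 2-fold minimum (-0.81 ± 0.26). SWEET11, an exporter of leaf phloem, overlapped between the organs (0.16 ± 0.23). No count of this family changed without stem replicate 3.

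Several genes of dividing cells were higher in flower. AUR1, an Aurora kinase of mitosis, gave 753, 676, 795 and 801 in flowers and 364, 304, 318 and 366 in stems. Its relative AUR2 gave 273, 268, 493 and 329 in flowers and 76.8, 157, 155 and 126 in stems. Their differences were 1.09 ± 0.15 and 1.21 ± 0.25 (adjusted p = 0.00017 and 0.0031), and AUR3, the kinase of the centromere, was not called at 0.77 ± 0.21. These 3 kinases were all the members with a probe set among 21 loci of the mitotic cell cycle list. HTB2, a histone H2B, gave 1959, 1904, 2127 and 2496 in flowers and 333, 266, 461 and 451 in stems (2.42 ± 0.19, adjusted p = 2.8e-06), and HTB1 differed by 1.61 ± 0.26. 3xHMG-box2, a protein of mitotic chromosomes, gave 1660, 1533, 2505 and 2026 in flowers and 568, 342, 369.9 and 340.4 in stems (2.17 ± 0.21). Of 6 histone H2B and 3xHMG-box genes tested 4 were higher and none lower, beside 9.85% higher among all tested probe sets. The median of the 6 was 1.46, and 1.32 to 1.65 under the other scalings. Without stem replicate 3 there were 5 higher. HTB4 was gained and 3xHMG-box1 was lost, its level in stem replicate 3 being 13.6 against 104 to 133 in the other stems; HTB11 was gained too. TOPII, the topoisomerase that untangles replicated DNA, differed by 1.48 ± 0.20 (adjusted p = 0.00019) and was chosen after its values were seen.

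Genes for secreted peptides and peptidases held large differences in each direction. Of 8 RALF-like genes tested 2 were higher and 1 was lower, beside 9.85% and 8.05% of all tested probe sets. RALFL26, a small signalling peptide of the RALF family, gave 864, 1233, 1212 and 675 in flowers and 14.1, 7.7, 23.3 and 16.6 in stems. RALFL25 gave 1242, 2129.5, 1092 and 1191 in flowers and 55.3, 108, 62.1 and 39.1 in stems. Their differences were 4.41 ± 0.24 and 3.88 ± 0.26. RALFL22 of the same family was lower in flower at 323, 1032, 972 and 917 in flowers and 2114, 3187, 3352 and 2159 in stems (-1.79 ± 0.33, adjusted p = 0.0014), where flower replicate 1 was the lowest array. Cysteine-rich peptides of the LCR family were higher for LCR66 (3.83 ± 0.39), LCR72 (3.08 ± 0.26) and LCR69, which reached 11909, 15355, 12366 and 11883 in flowers and 961, 1000.3, 2857 and 2441 in stems (2.96 ± 0.32). The subtilase SBT1.3, a secreted protease, had 5215, 5659.9, 5019 and 5284 in flowers and 618, 388, 571 and 573 in stems (3.24 ± 0.16, adjusted p = 7.1e-08), whereas ATSBT5.2 was lower at -2.23 ± 0.24. Of 6 subtilases tested 3 were higher and 2 lower. Serine carboxypeptidase-like genes, which code for acyltransferases and peptidases, had 8 higher and 2 lower of 19 tested, led by scpl38 at 3.11 ± 0.27 against SCPL27 at -1.31 ± 0.27; their median over 29 members was 0.30 and turned to -0.04 with median centring.

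Other genes with large differences were of mixed kind. CYP71B31, a cytochrome P450, gave 643, 638, 2725 and 1636 in flowers and 3.7, 6.7, 10.3 and 54.3 in stems. The greenhouse flowers were above the chamber flowers, and all flowers were above all stems (4.66 ± 0.45, adjusted p = 1.5e-05). OCT1, an organic cation and carnitine transporter, was almost constant in flower at 861, 827, 819.5 and 872 in flowers and 8.1, 7.9, 4.3 and 6.2 in stems (4.50 ± 0.19). RR16, a type-A response regulator of cytokinin signalling, gave 939, 787, 872 and 665 in flowers and 35.8, 4.6, 19.4 and 81.9 in stems (3.77 ± 0.31). GILT, named for a lysosomal thiol reductase, varied within the organs, with 6619.8, 6757, 6888 and 3101 in flowers and 1238, 496, 87.4 and 190 in stems (3.94 ± 0.59, adjusted p = 0.00035). RXF26 differed by 4.44 ± 0.33. STOMAGEN, the peptide that promotes stomata, gave 853, 1227, 1046 and 763 in flowers and 225, 199.6, 91.9 and 158 in stems (2.35 ± 0.24, adjusted p = 2.4e-05). ARPN, the plantacyanin of the transmitting tract, differed by 2.71 ± 0.33 and TRY, an inhibitor of trichome formation, by 1.28 ± 0.28.

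Xylan genes of the secondary wall were among the transcripts lowest in flower relative to stem. IRX15, needed for normal xylan, gave 12.9, 15.1, 15.7 and 6.8 in flowers and 1624, 1302, 1686 and 659 in stems. Flowers were at the bottom of the scale on every array, and stem replicate 4 was the lowest stem (-4.84 ± 0.28, adjusted p = 2.2e-07). Its relative IRX15-L gave 224, 176, 134 and 65.1 in flowers and 3107, 2641, 2083 and 1714 in stems (-3.78 ± 0.29, adjusted p = 2.2e-06). GUT2, a subunit of xylan synthase also known as IRX10, gave 276, 280, 238 and 272 in flowers and 2967, 2827, 1030 and 1233 in stems; stem replicates 1 and 2 were above replicates 3 and 4 (-2.63 ± 0.31, adjusted p = 6.8e-05). GUT1, the close relative of GUT2, was not called at -0.71 ± 0.15, with 588, 529, 609 and 639 in flowers and 984, 911, 1194 and 874 in stems. These 4 were all the members with a probe set among 27 loci of secondary wall cellulose and xylan, 3 were lower, and their median was -3.21 (-3.43 to -3.12 under the other scalings). None of the 28 loci of the list of secondary wall regulators, the NAC and MYB switches, had a probe set with a gene name.

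Lignin-related genes followed in part. Of 22 loci of the monolignol and lignin list 3 had a probe set with a gene name, 2 were tested and 1 was lower. HCT, an acyltransferase of monolignol synthesis, gave 1177, 1438, 933 and 882 in flowers and 4577, 5127, 4075 and 3422 in stems (-1.94 ± 0.19, adjusted p = 1.6e-05). BGLU45, a β-glucosidase that acts on monolignol glucosides, gave 22.2, 67.7, 62.5 and 69.9 in flowers and 783, 1129, 511 and 425 in stems. Its relative BGLU46 gave 62.5, 127, 92.4 and 54.3 in flowers and 678, 1245, 864 and 474 in stems. Neither organ overlapped the other for either gene, and the differences were -3.03 ± 0.31 and -2.83 ± 0.29. Both come from the β-glucosidase list, in which 3 of 13 tested were lower, 1 was higher and 9 were not called. Of all tested probe sets 8.05% were lower and 9.85% higher. PRX52, a peroxidase, was not called at 0.52 ± 0.24 (adjusted p = 0.12). LigB and CYP84A4, which together make arabidopyrones from a phenylpropanoid aldehyde, were both lower in flower. These 2 genes were chosen after their values were seen. LigB had 583, 702, 615 and 542 in flowers and 2522, 3042, 2853 and 1898 in stems (-2.01 ± 0.17, adjusted p = 6.1e-06). CYP84A4 had 32, 54.6, 5.5 and 6.8 in flowers and 197, 134, 204 and 164 in stems (-1.94 ± 0.36, adjusted p = 0.0014).

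Several listed genes for enzymes that act on pectin and xyloglucan were lower in flower. AT59, the pectate lyase given with the pollen genes, went the other way at 3.00 ± 0.40. PMEPCRF, a pectin methylesterase, which strips methyl groups from pectin, gave 173, 279, 354 and 359 in flowers and 6368, 6630.4, 5887 and 5394 in stems. PME61 of the same family gave 217, 88.7, 108 and 151 in flowers and 4931, 3815, 2084 and 2041 in stems. PMEPCRF was even within each organ, and for PME61 stem replicates 1 and 2 were the highest. Their differences were -4.28 ± 0.21 and -4.18 ± 0.31 (adjusted p = 5.3e-08 and 1.8e-06). Of 5 listed pectin methylesterase genes tested 3 were lower and none higher, with a median of -2.56. Of all tested probe sets 8.05% were lower. Gene families were listed by symbol or alias, so members known by a locus number alone were not counted and may differ. Among XTH genes, whose enzymes cut and rejoin xyloglucan, 5 of 8 tested were lower and none higher, and the median over 10 members was -0.84. XTH18 gave 23, 104, 315 and 323 in flowers and 1113, 1779, 3571 and 2824 in stems. Greenhouse flowers were above chamber flowers, flower replicate 1 was the lowest, and the organs did not overlap (-3.63 ± 0.55, adjusted p = 0.00039). XTH33 differed by -2.55 ± 0.27 and XTH19 by -1.59 ± 0.25, while XTH16 overlapped between the organs (-0.10 ± 0.45). CSLC04, which makes the glucan backbone of xyloglucan, gave 959, 1411, 2234 and 1641 in flowers and 4634, 5709.6, 6087 and 4609 in stems (-1.78 ± 0.23, adjusted p = 0.00012).

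Expansin-like genes showed the same direction, with 3 of 4 tested lower (4 of 4 without stem replicate 3) and a median of -1.97 over 5 members. EXLA3 gave 14.3, 58.9, 136 and 142 in flowers and 1012, 1545, 2480.2 and 905 in stems (-3.74 ± 0.43, adjusted p = 4.8e-05). EXLA1 had 1135, 2559, 3796 and 4907 in flowers and 9307, 10599, 17062 and 9232 in stems (-2.03 ± 0.38). For EXLA1 the lowest array was flower replicate 1 and the highest stem replicate 3. Expansins proper, which loosen walls during growth, had 2 higher and 1 lower of 9, beside 9.85% and 8.05% of all tested probe sets. EXPA4 was at 1.24 ± 0.23, EXPB5 at 1.15 ± 0.23 and EXPA16 at -1.21 ± 0.31, the last with an overlap between the organs.

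Other wall families held members of opposite direction. AT4G08160, which carries the xylanase symbol ATXYN3, was lower in flower with 96.3, 105, 74.3 and 99.6 in flowers and 769, 861, 1578 and 877 in stems (-3.01 ± 0.23, adjusted p = 1.9e-06). In the TBL family, whose enzymes acetylate wall polysaccharides, 8 of 19 tested were lower and 1 was higher; the median over 24 members was -0.58 (-0.79 to -0.47 under the other scalings). TBL38 gave 615, 756, 632 and 612 in flowers and 3472, 2652, 3344 and 2542 in stems (-2.14 ± 0.16, adjusted p = 1.6e-06). TBL26, the member higher in flower, gave 1827, 1130.1, 2316 and 1064 in flowers and 135, 154, 59.5 and 178 in stems (3.30 ± 0.30). AT5G06700, the founding TRICHOME BIREFRINGENCE gene, and AT2G31110, which is TBL40, were at -1.79 ± 0.17 and -1.89 ± 0.22. GH9 endoglucanases, which cut β-1,4-glucans, had 3 higher and 2 lower of 9, beside 9.85% and 8.05% of all tested probe sets. GH9B5 was lower at 238, 233, 267 and 281 in flowers and 2066, 2179, 2951 and 2186 in stems (-3.04 ± 0.16, adjusted p = 9.9e-08). GH9A4 was higher at 721, 1184, 526 and 562 in flowers and 168, 110.1, 67.1 and 159 in stems (2.28 ± 0.29). The CSLA mannan synthases were split as well: CSLA01 was higher (2.96 ± 0.35) and CSLA03 lower (-1.31 ± 0.26).

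**Figure D3:**
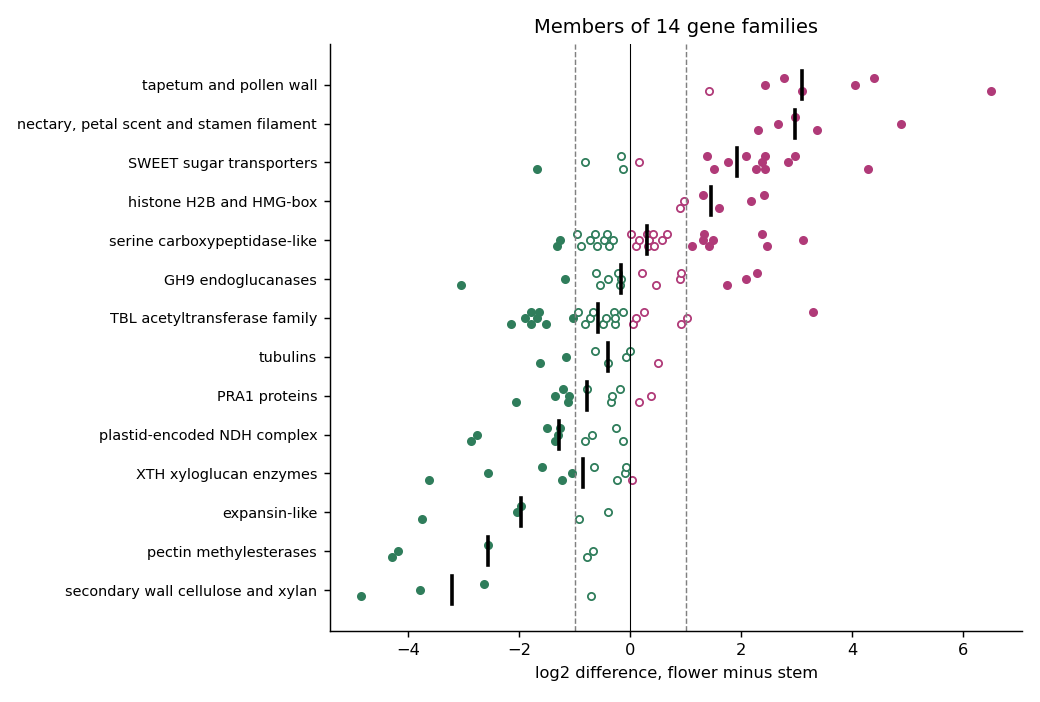
Log2 difference, flower minus stem, of every listed member with a probe set in 14 gene families, 1 row a family. Filled points were called, open points were not called or not tested, the short bar is the median of the family and the dashed lines mark the 2-fold minimum. Listed SWEET members lie mostly to the right, and listed pectin methylesterase, XTH and expansin-like members mostly to the left.

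The named gene with the largest negative difference codes for a microtubule protein. AT3G23090, which is WDL3 and is named for its likeness to the microtubule-binding protein WAVE-DAMPENED2, gave 10.9, 14.5, 7.1 and 12.5 in flowers and 2209, 2536, 2088 and 1661 in stems. Each organ was even, and flowers were near the bottom of the scale (-5.63 ± 0.18, adjusted p = 2.1e-09). TUB6, a β-tubulin, gave 2061, 2229, 2616 and 1899.6 in flowers and 6646, 6888, 7551 and 6256 in stems. TUB1, another, gave 797, 732, 839.6 and 889 in flowers and 2151, 1608, 1620.2 and 2127 in stems. They were the lower 2 of 7 tubulins tested, with differences of -1.63 ± 0.14 and -1.16 ± 0.16, and none was higher; TUA1, an α-tubulin known from pollen, was at 0.51 ± 0.13 and not called. Of 5 SPIRAL1-like genes, whose proteins sit at the growing microtubule end, SP1L5 (-2.09 ± 0.22) and SP1L2 (-1.40 ± 0.23) were lower and SP1L4 (1.57 ± 0.22) was higher. COB, which orients cellulose fibrils in expanding cells, gave 1854, 2279.8, 2558 and 3475 in flowers and 6312, 5951, 4315 and 7991 in stems (-1.27 ± 0.22, adjusted p = 0.0011). IQD28, a calmodulin-binding scaffold protein, differed by -1.85 ± 0.17 (adjusted p = 8.9e-06), and was the only 1 of 12 IQD genes to be called (8.05% of all tested probe sets were lower). Of 12 genes tested for TRM proteins, which recruit the TON1 complex to microtubules, 3 were higher and 9 were not called. Among all tested probe sets 9.85% were higher, and the median over 14 TRM members was 0.08. TRM24, TRM34 and TRM20 were the ones called, at 2.09 ± 0.34, 1.34 ± 0.42 and 1.15 ± 0.17. The arrays overlapped for TRM34.

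Photosynthesis genes of the nucleus had lower means in flower, and the number of calls depended on the scaling. RCA, rubisco activase, gave 12311, 16102, 11521 and 7776 in flowers and 20181, 18435, 23514 and 20181 in stems (-0.83 ± 0.20, adjusted p = 0.0076). PRK and SBPASE, enzymes of the Calvin cycle, were at -0.74 ± 0.15 and -0.84 ± 0.18. The 3 Calvin cycle genes tested passed the adjusted p and not the 2-fold minimum, and no flower array overlapped a stem array. LHCB4.2, an antenna protein of photosystem II, gave 4038, 3261, 2959 and 2301 in flowers and 8829, 9129, 5824 and 5428 in stems (-1.20 ± 0.22, adjusted p = 0.0014). HPR, hydroxypyruvate reductase of photorespiration, was called at -1.06 ± 0.17; without stem replicate 3, its highest array, the difference was -0.91 and the call was lost. The Calvin cycle median was -0.83 with quantile normalisation and -1.09, -1.07 and -1.39 with trimmed mean scaling, GapC scaling and median centring. RCA and SBPASE passed the 2-fold minimum and were called under each of these other scalings, and PRK with median centring. The medians of the photorespiration and antenna lists were negative under all 4 scalings.

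Among genes of the plastid genome, the NDH complex had the largest share of calls of the 4 groups examined. NDH subunits form the chloroplast complex of cyclic electron flow. Of 10 tested 6 were lower and none higher, and all 10 had negative differences, with a median of -1.27 (-1.43 to -1.11 under the other scalings). ndhF gave 125, 73.4, 185 and 115 in flowers and 1007, 1431, 1452 and 637 in stems (-2.87 ± 0.29, adjusted p = 1.8e-05). ndhG gave 304, 334, 304 and 523 in flowers and 3029, 3475, 3872 and 1133 in stems (-2.76 ± 0.34, adjusted p = 9e-05). For both genes stem replicate 4 was the lowest stem. Of 32 plastid genes for photosystems, cytochrome b6f and ATP synthase 6 were lower and none higher, and 11 were lower without stem replicate 3. Of all tested probe sets 8.05% were lower, and 8.08% without that array. petN and petG of cytochrome b6f were at -1.68 ± 0.25 and -1.57 ± 0.24, and atpI of ATP synthase at -1.61 ± 0.34. psbB, of photosystem II, gave 3076, 1091, 577 and 1568 in flowers and 4224, 3549, 1888 and 2775 in stems; it was not called with all arrays (-1.15 ± 0.42, adjusted p = 0.051), and was called at -1.34 without stem replicate 3. psbM of the same photosystem was not called, with 34792, 32233, 38779 and 36298 in flowers and 34792, 29666, 37296 and 29072 in stems (0.12 ± 0.14); it turned to -0.49 with trimmed mean scaling, -0.46 with GapC scaling and -0.79 with median centring.

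The mean over the plastid genes moved with single arrays. It was 11.58, 11.01, 10.98 and 11.58 log2 units in flowers and 12.05, 12.08, 11.41 and 11.98 in stems, so that stem replicate 3, the array with the high 3' to 5' ratios, lay within the flower range. The difference over 4 arrays each did not reach 0.05 (exact two-sided permutation test p = 0.0857). The part of RNA quality in these values was not tested. Genes of plastid transcription and translation had 2 lower of 19 tested, against 8.05% of all tested probe sets: rpoB at -1.59 ± 0.24 and rps14 at -2.06 ± 0.43.

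**Figure D4:**
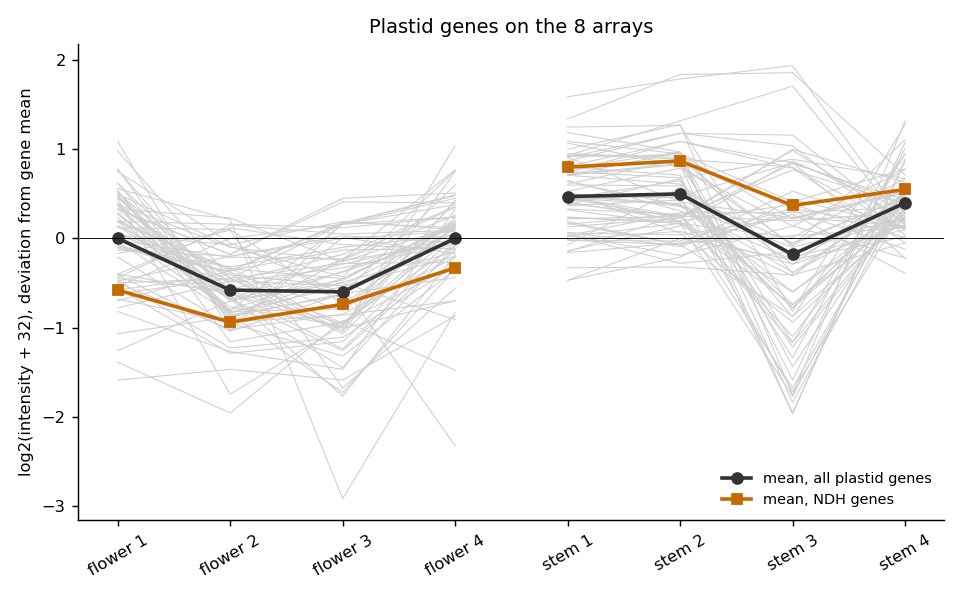
Each grey line joins the log2(intensity + 32) of 1 plastid gene across the 8 arrays, flowers on the left and stems on the right, as the deviation from its own mean. The bold line with circles is the mean over the 69 plastid genes and the bold line with squares the mean over the 10 NDH genes. The plastid mean drops in stem replicate 3 while the NDH mean does not fall to the flower level there.

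Stress-related and signalling genes went in both directions. The dehydrin LTI30, a protein that protects dehydrating cells, was much lower in flower, with 267, 410, 129 and 225 in flowers and 5585, 4031, 4731 and 3669 in stems (-4.04 ± 0.27, adjusted p = 7.7e-07). COR15A, a chloroplast protein of cold acclimation, was higher at 4450.2, 3980.2, 5002 and 4609 in flowers and 1348, 482, 978 and 1093 in stems (2.26 ± 0.26, adjusted p = 5.2e-05), as was the dehydrin LEA (3.01 ± 0.32). BCAT4, the aminotransferase that opens the synthesis of methionine-derived glucosinolates, gave 168, 276, 484 and 293 in flowers and 1132, 909, 2670.4 and 1351 in stems (-2.16 ± 0.34). APS3 and APS4, ATP sulfurylases, which activate sulfate, were lower at -1.43 ± 0.25 and -1.62 ± 0.18. STZ, a zinc finger factor of stress, was called at -1.58 ± 0.49 (adjusted p = 0.027), although its values of 442, 628, 1078 and 178 in flowers and 1091, 2886, 782 and 2137 in stems overlapped. ORA47 and CML38, a jasmonate-linked transcription factor and a calmodulin-like protein, overlapped too, at -1.33 ± 0.48 and -1.28 ± 0.40. The calls of all 3 were lost under at least 6 of 24 other settings or sets of arrays. For all 3, stem replicates 2 and 4 were above stem replicates 1 and 3.

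AT1G75280, given as P3 in the gene table, had 2932, 1741, 2584 and 2132 in flowers and 17178, 14823, 21088 and 16102 in stems (-2.88 ± 0.18, adjusted p = 5.1e-07), with all flowers below all stems. Membrane proteins of the PRA1 family, which act in vesicle traffic, were lower for 5 of 10 tested and 4 without stem replicate 3, and none was higher. PRA1.B4 gave 869, 1089, 833 and 468 in flowers and 4248, 3193, 3305 and 2833 in stems (-2.06 ± 0.23, adjusted p = 4.9e-05). Tetraspanins, scaffold proteins of membranes, were lower for 4 of 11, beside 8.05% of all tested probe sets, led by TET5 at -1.75 ± 0.38.

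Some transcripts with high signal differed by no more than a narrow margin. GapC, to which the labels scale the arrays, gave 10667, 10599, 8523 and 6630.4 in flowers and 8684, 7269.9, 6763 and 8684 in stems (0.20 ± 0.18, adjusted p = 0.42). The organs overlapped, and the sign turned with trimmed mean scaling and median centring. SAMDC of polyamine synthesis (0.14 ± 0.13), the thioredoxin ATHM2 (0.02 ± 0.12), TPI of glycolysis (-0.20 ± 0.13) and ACLA-1, a citrate lyase subunit (-0.11 ± 0.13), each had a 95% interval within -0.5 to 0.5 after quantile normalisation. That closeness depended on the scaling, since with median centring SAMDC was at -0.58, ATHM2 at -0.47, TPI at -0.68 and ACLA-1 at -0.62, each with an adjusted p under 0.05 (limma).

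Growth site was looked at within the organs' contrast. In the growth chamber arrays alone, 2 of each organ, 1584 probe sets were called higher in flower (9.81%) and 1331 lower (8.24%). The greenhouse arrays, 2 flowers and stem replicate 3, share no array with these. In them 1541 of the 1584 had a positive difference and 1275 of the 1331 a negative one. A difference of at least 2-fold was seen there for 68.3% of the higher and 64.4% of the lower, against 13.8% and 10.7% of all tested probe sets. Across the 16145 probe sets, which are not independent replicates, the differences of the 2 sites correlated at r = 0.795. ATA27 differed by 6.97 in the chamber and 5.51 in the greenhouse, IRX15 by -5.04 and -5.25, and XTH18 by -4.08 and -3.30.

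A direct test of whether the contrast differed between sites, in 7 arrays without stem replicate 4, called 6 probe sets (0.0372%), with 1724 at an unadjusted p under 0.05. Stem replicate 3 was the only greenhouse stem in that fit and was assumed to vary like the other arrays. petB, of cytochrome b6f, was among the 6, with 27754, 27232, 26399 and 28767 in flowers and 27232, 29416, 7567 and 35720.1 in stems. Its level in stem replicate 3 was far below the other 7 arrays, and the same array was the lowest stem for all 6. No probe set was called when stem replicate 4 was placed in the greenhouse, by the same limma test, with 598 at an unadjusted p under 0.05, and 46 were called when it was placed in the chamber.

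**Figure D5:**
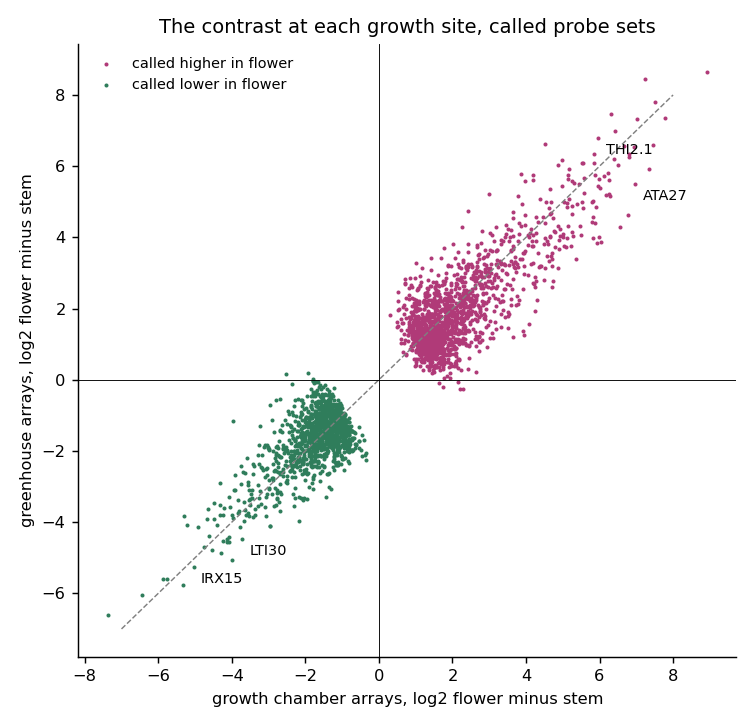
Log2 difference, flower minus stem, in the greenhouse arrays (y axis, 2 flowers and 1 stem) against that in the growth chamber arrays (x axis, 2 flowers and 2 stems) for the 2890 called probe sets. Points on the dashed line have the same difference at each site. These probe sets were called in the main fit, which includes the arrays on both axes. That selection favours agreement between the axes, so the plot is no separate test of it. The labelled genes ATA27, THI2.1, LTI30 and IRX15 are among the named genes with the largest differences, and each has the same sign at both sites.

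Some calls fell on genes that lie next to each other on the chromosome. Of 3039 neighbouring pairs in which both genes were tested, 53 were higher in flower together, 24 were lower together and 29 went opposite ways. Of the tested neighbours of a gene called higher, 17.6% were higher too, beside 9.9% of all genes in these pairs. Of the neighbours of a gene called lower, 10.7% were lower, beside 7.35%. BGLU45 and BGLU46, XTH18 and XTH19, EXLA3 and EXLA1, and RALFL25 and RALFL26 are such pairs. Each pair belongs to 1 family, and whether the probes of one gene also read the transcript of the other was not tested.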

How the data were processed

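Total RNA of 4 flower and 4 stem samples was measured on 1 ATH1 array each. Per the labels' protocols, the array images were analysed with Microarray Suite 5.0 at a target intensity of 500, and the deposited values are linear signal intensities. The labels also give a factor that sets GapC to 8500; the deposited intensities do not carry it, and it was run as an alternative. Detection calls were not used here, so a low intensity is a value near background rather than an absence. All arrays share 1 array lot by the labels. The 3 leaf arrays were left out, since leaf differed in age and RNA preparation.

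From the 22810 probe sets 64 controls were left out. Each array was rescaled to a trimmed mean of 500 (2% trimmed at each end), the 8 arrays were quantile normalised, and log2(intensity + 32) went into a limma fit (version 3.58.1, R 4.3.3; lmFit, eBayes with an intensity trend, two-sided, Benjamini-Hochberg over 16145 probe sets). A fold change on this scale understates the change of weak genes. After the fit, simulated arrays with planted differences, built from the levels and spread of these data, were run through the same steps. The interaction of organ and site used 7 arrays.

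A table of the platform gave 1 gene to 13513 probe sets, several to 503 and none to 8730, and 13436 were updated through RefSeq gene names (TAIR10.1). Each gene was read from its probe set with the highest mean, and in 80 genes with more than 1 tested probe set none were called in opposite directions, while 10 were called on some probe sets only. Of the called probe sets 137 higher and 133 lower had a gene with a symbol or alias. Named genes were taken by rule, though not every gene the rule gives is named: of those that do not overlap between organs, the 12 largest differences in each direction, then for each gene list the 3 largest calls in its main direction and 1 in the other, the tested members of marker lists, 5 genes with narrow intervals after quantile normalisation, up to 5 genes whose call changed without stem replicate 3, and GapC; the other genes named were chosen after their values were seen. The lists and the comparison were chosen with earlier results of these data known, and lists were revised to exact symbols to drop wrong matches. Other scalings, pseudocounts, filters and fits, the site terms and leaving out each array were tried. No promoter sequence was analysed here, and the result of 1 gene list is not reported here.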

Additional observations from a re-analysis of the deposited data

Results flagged for a closer look

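Within each organ, an array far from the other 3 was sought among the named genes and the array measures. Of 256 groups of 4 arrays 25 held one by Dixon's criterion, and chance gives about 1 in 20. Stem replicate 3 was the array apart for the 3' to 5' ratio of actin (12.2) and of GAPDH (13), for the plastid mean of 11.41 log2 units and for its mean correlation with the other stems (0.907). It was also apart for 3xHMG-box1 (13.6), VDD (54.5), LEA (68.4), UGT78D1 (331), GH9B5 (2951) and HPR (10667). Stem replicate 4 stood apart for ANX2 (41.8) and EMS1 (137), stem replicate 1 for SWEET9 (214) and 3xHMG-box2 (568), and stem replicate 2 for PLIM2a (28.3). Among flowers, replicate 4 had the lowest mean correlation with its own organ (0.936) and was apart for GILT (3101), XTH33 (273), ndhG (523) and rps14 (22.6). Flower replicate 1 was apart for RALFL22 (323), BGLU45 (22.2) and TRM34 (119), and flower replicate 2 for LCR69 (15355) and TBL38 (756).

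The difference between flower and stem was itself different between greenhouse and growth chamber for 6 probe sets, by an interaction term in limma at an adjusted p of 0.048 for each. As greenhouse minus chamber in log2 units it was 1.89 for petB and 2.61 for psbE, both of the plastid genome. The other 4 probe sets have no gene name here and were at 3.74, 3.05, 2.42 and 4.70. Stem replicate 3 was the lowest stem for all 6 and the 1 greenhouse stem in that fit, so growth site and that array cannot be told apart.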

How the results depend on the processing

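The 24 alternatives gave between 1240 and 2064 calls higher and between 962 and 1898 lower in flower, apart from dropping the 2-fold minimum, which gave 2926 higher and 2800 lower. Leaving out 1 array at a time gave 1476 to 1666 higher and 1217 to 1322 lower. Scaling moved the split, with 1954 higher and 1128 lower for a trimmed mean, 2064 and 1097 for GapC and 1253 and 1898 for median centring; pseudocounts of 1 and 100 gave 1688 and 1434, and 1240 and 967. Of 121 called genes named in the text none changed sign under any alternative that gave it a value (with a signal minimum of 200 that was 110 of them); the most that lost the call were 21, in the greenhouse arrays alone, where stem replicate 3 is the lone stem, assumed to vary like the flowers, with 1 residual degree of freedom, and the pseudocounts moved the fold of 39 by over 1.5 times. For 116 of the 121 genes the flower and stem arrays did not overlap. With such values, dropping arrays or changing the pseudocount, filter or trend could hardly turn a sign. The kept signs are therefore a weak check. ORA47, CML38, TRM34, STZ and 3xHMG-box1 each lost the call under at least 6 alternatives. Among genes not called, GapC turned to -0.03 with the trimmed mean and -0.32 with median centring, and is 0 by construction with GapC scaling. SDS turned to -0.11 with site as a covariate in 7 arrays, -0.22 in the chamber arrays alone and -0.03 without stem replicate 4, the lowest of -0.03 to 0.36 when 1 array was left out. SWEET11 turned to -0.10 with median centring and -0.46 in the greenhouse arrays, and XTH16 to 0.29 in the greenhouse arrays, 0.42 without flower replicate 1 and 0.02 without stem replicate 3, within a range of -0.50 to 0.42 when 1 array was left out; the cause was not tested. The 6 interaction calls became 0 with stem replicate 4 as greenhouse and 46 with it as growth chamber. Each flower array shared deviations most with the stem array of its own replicate number, though weakly (r = 0.119, 0.166, 0.091 and 0.139). Stem replicate 3 correlated slightly better with flower replicate 4 (0.097). The numbers were not taken as pairs in the main fit, and with the replicate number as a block 1610 were higher and 1319 lower. With 4 arrays a group, small differences are the least certain, and of weak genes the fold depends on the pseudocount.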

Other observations

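Enzymes that attach sugars to small molecules were mixed. Of 18 UGT glycosyltransferases tested 5 were higher in flower and 1 was lower, beside 9.85% and 8.05% of all tested probe sets. The median difference over all 51 with a probe set was 0.03. UGT78D1, which adds rhamnose to flavonols, gave 799.7, 606, 852 and 464 in flowers and 152, 174, 331 and 167 in stems (1.60 ± 0.26, adjusted p = 0.00055, limma). Every flower was above every stem for it, and stem replicate 3 was the highest stem. UGT76C1, which glucosylates cytokinins, was lower at 15.7, 25.3, 45.5 and 9.7 in flowers and 129.5, 295, 199.6 and 149 in stems (-1.99 ± 0.34). Without stem replicate 3 there were 2 lower in this family.

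Aldehyde dehydrogenases, which oxidise aldehydes to acids, also held calls of opposite sign. Among all tested probe sets 9.85% were higher and 8.05% lower. Of 8 aldehyde dehydrogenases tested 2 were higher, ALDH7B4 at 1.36 ± 0.15 and ALDH3F1 at 1.09 ± 0.17, and 1 was lower. That was ALDH2C4, which forms ferulic and sinapic acid, with 608, 683, 465 and 461 in flowers and 1433, 1181, 1129 and 1179 in stems (-1.12 ± 0.17, adjusted p = 0.00039, limma). Among 11 autophagy genes ATG8B, a ubiquitin-like protein of the autophagosome, was the member called (1 of 11, beside 9.85% of all tested probe sets called higher), with 975, 1462, 1288 and 1120.3 in flowers and 374, 392, 583 and 414 in stems (1.40 ± 0.19, adjusted p = 0.00016, limma). Of 5 B3-domain genes of the REM group 2 were tested and both were higher, AT2G16210, which is REM24, at 1.69 ± 0.42 and AT2G35310, which is REM23, at 1.60 ± 0.26.

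Genes of vascular and meristem patterning had few probe sets with a name: of 26 loci 3 were tested, and YAB3 was the member called. PRL, which is the replication helicase subunit MCM7, was at 0.91 ± 0.19 and did not reach the 2-fold minimum. The root and seed list held 1 gene with a probe set, GH9C1, which was too weak to be tested.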
